A study of Mus musculus with 16 samples.

Results

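The genes described here are *Yap1*, *Wwtr1* (which encodes TAZ) and 8 of their target genes: *Ctgf*, *Cyr61*, *Ankrd1*, *Amotl2*, *Lats2*, *Ajuba*, *Axl* and *Crim1*. They were chosen by gene symbol, with day 3 results of these libraries already known, and all 10 were found among the 18990 genes of the expression table and passed the filter on low values. The data are RNA sequencing libraries of wild-type BL6 mouse embryonic fibroblasts (MEFs) that were being reprogrammed at passage 2. All cultures were transduced with a doxycycline-inducible lentiviral cassette of Oct4, Sox2, Klf4 and c-Myc (tet-STEMCCA, OSKM) and rtTA, each at an MOI of 1. All were kept in doxycycline, the GSK3 inhibitor Chiron, the TGF-beta receptor inhibitor Alk5i, ascorbic acid and LIF. Cells received 40 nM of pooled siRNAs that were non-targeting (nt control) or directed at *Wdr5* (siWdr5), *Brca1* (siBrca1) or *Bard1* (siBard1), and OSKM was induced 24 hours later. RNA was collected on day 3 and day 6, which gives 8 groups of 2 libraries, and the reads come from a whole culture in which reprogramming and non-reprogramming cells are mixed. In such bulk samples, fewer cells of one type and less RNA per cell cannot be told apart.

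YAP1 and TAZ are the transcriptional coactivators at the end of the Hippo pathway. The kinase MST acts on the kinase LATS, which phosphorylates them and keeps them in the cytoplasm. In spread, stretched or growing cells YAP1 and TAZ enter the nucleus and bind TEAD transcription factors at target genes. Fibroblasts on stiff plastic are a textbook case of active YAP and TAZ. Several targets feed back on the pathway: LATS2 and AMOTL2 restrain the coactivators that induce them, so a target gene can also be an inhibitor. The values below are transcript levels and say nothing of phosphorylation or of where the proteins are.

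The TEAD factors bind the letters GGAATG, which read CATTCC on the other strand. These letters were searched on both strands in the 250 bases upstream of each transcription start, in the RefSeq promoter sequences of build GRCm38.p6. For 9 of the 10 genes the RefSeq promoter table has an entry, with *Ctgf* named only. At least 1 match was found in 8 of the 9, while 14.4% of the 27025 genes in the table hold one. The exception was *Lats2*, where the letters are not in either of its windows, which says no more than that. The genes were chosen as targets of YAP and TAZ, which act through TEAD factors, so this share is a description and not independent of the choice. The matches are shown because they are the letters through which these coactivators are known to act, each with 10 bases on either side, written along the gene's own strand with the matching letters in capitals:

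Yap1, 141 bases upstream, chr9:8004722-8004747, minus strand: ggagtctgcaGGAATGtagcgacgcg
Wwtr1, 136 bases upstream, chr3:57576031-57576056, minus strand: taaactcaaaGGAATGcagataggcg
Cyr61, 103 bases upstream, chr3:145650073-145650098, minus strand: cgccaaccaaCATTCCtgagatgttt
Ankrd1, 210 bases upstream, chr19:36120039-36120064, minus strand: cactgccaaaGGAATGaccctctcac
Ankrd1, 123 bases upstream, chr19:36119952-36119977, minus strand: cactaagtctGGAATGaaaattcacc
Amotl2, 65 bases upstream, chr9:102717729-102717754, plus strand: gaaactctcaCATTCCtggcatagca
Ajuba, 186 bases upstream, chr14:54577832-54577857, minus strand: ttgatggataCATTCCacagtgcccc
Ajuba, 164 bases upstream, chr14:54577810-54577835, minus strand: cccctccgcgCATTCCaactgtaaac
Axl, 233 bases upstream, chr7:25788951-25788976, minus strand: aaattctacaGGAATGtttaccagac
Crim1, 79 bases upstream, chr17:78200159-78200184, plus strand: ggcgggggggGGAATGaggtaggatg

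*Ankrd1* and *Ajuba* held 2 matches each. The matches began between 65 and 233 bases upstream of the start. A match is a description of the letters and not a measured binding site. In GENCODE vM21 on the same build, all are protein-coding genes. *Yap1* lies at chr9:7931999-8004596 (minus strand) and *Wwtr1* at chr3:57455649-57575910 (minus strand). The CCN genes *Ctgf* and *Cyr61* lie at chr10:24595442-24598683 (plus strand) and chr3:145646976-145649981 (minus strand). *Ankrd1* lies at chr19:36111961-36120099 (minus strand), *Amotl2* at chr9:102716672-102733418 (plus strand) and *Lats2* at chr14:57689662-57758388 (minus strand). *Ajuba* lies at chr14:54567472-54577558 (minus strand), *Axl* at chr7:25757273-25788705 (minus strand) and *Crim1* at chr17:78200248-78376592 (plus strand). The matches of *Ankrd1* and *Amotl2* fall inside these gene spans, upstream of the RefSeq start that was used, and those of the other genes before the span. The whole upstream window is given for *Cyr61*, the gene with the largest log2 fold change of the 10 in siWdr5 at day 6, and for *Yap1* itself. The *Cyr61* window lies at chr3:145649986-145650235 on the minus strand, directly upstream of the RefSeq start:

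Cyr61: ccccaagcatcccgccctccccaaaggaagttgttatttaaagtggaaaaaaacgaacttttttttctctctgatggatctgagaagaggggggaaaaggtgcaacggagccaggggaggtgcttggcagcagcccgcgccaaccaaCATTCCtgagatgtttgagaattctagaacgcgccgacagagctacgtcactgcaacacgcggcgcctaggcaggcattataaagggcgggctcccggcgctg

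The *Yap1* window lies at chr9:8004597-8004846 on the minus strand, and holds a single match:

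Yap1: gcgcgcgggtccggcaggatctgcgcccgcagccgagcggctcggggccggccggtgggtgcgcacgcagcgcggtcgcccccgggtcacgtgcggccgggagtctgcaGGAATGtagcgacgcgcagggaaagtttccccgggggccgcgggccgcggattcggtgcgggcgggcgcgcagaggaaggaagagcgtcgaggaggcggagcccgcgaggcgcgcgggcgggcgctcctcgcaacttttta

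The expression values are log2 CPM, which are reads of a gene scaled to a size set for its library, and CPM are given here. The size recovered from the values was not the read total itself. At day 3 it was 1.92e+07 against a total of 1.72e+07 reads in siBard1 replicate 2, and 1.51e+07 against 1.63e+07 in siWdr5 replicate 2. The libraries held 11169738 to 26832534 reads, and the 10 genes were covered by 76 reads (*Ankrd1*) to 11561 reads (*Axl*) per library. The siRNA targets were read first. At day 3, *Wdr5* averaged 52.96 ± 3.28 CPM (SD, n = 2) in siWdr5 against 131 ± 0.901 in the nt control, *Brca1* 28.4 ± 12.8 in siBrca1 against 80.2 ± 3.11, and *Bard1* 19.4 ± 1.98 in siBard1 against 29.8 ± 1.01. At day 6 these transcripts stood at 78.9 ± 9.28 against 94.96 ± 4.49 for *Wdr5*, 37.96 ± 2.96 against 37.9 ± 6.64 for *Brca1* and 13.5 ± 1.30 against 12.6 ± 1.95 for *Bard1*. *Bard1* at day 3 was lower in siBrca1 (11.8 ± 3.80) and siWdr5 (14.6 ± 1.03) than in siBard1 itself, and *Brca1* stood at 44.5 ± 5.62 CPM in siWdr5, so the level of *Bard1* does not tell the siBard1 libraries from the other knockdowns, and at day 6 neither *Brca1* nor *Bard1* was below the nt control on average in its own knockdown. These transcripts therefore do not check the labels of the siBard1 libraries or of the siBrca1 libraries at day 6. Of the fibroblast markers *Col1a1*, *Col1a2*, *Col3a1*, *Thy1*, *Pdgfra*, *Pdgfrb*, *Dcn*, *Lum*, *Fbln2* and *Postn*, all 10 had values, and their summed level was 6196 to 7213 CPM in the nt control at day 3. Of the endothelial markers, *Pecam1* and *Cdh5* reached group means of at most 1.41 and 0.593 CPM, and *Emcn* was at 0.136 CPM in both nt control libraries at day 6, the value the table gives to a count of 0. *Tek* made up most of their sum. Of the macrophage markers, *Adgre1*, *Csf1r* and *Cd68* reached group means of at most 0.873, 5.22 and 9.35 CPM. *Des* of the muscle markers averaged 35.4 CPM in the nt control, 139 in siWdr5, 168 in siBrca1 and 81.6 in siBard1 at day 3, and 15.2, 59.1, 36.2 and 31.2 CPM in the same order at day 6. *Ptprc* and *Aif1* and the muscle markers *Myod1*, *Myog* and *Myf5* were not analysed here. The libraries of a group are independent experiments per the study's methods.

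**Figure D1:**
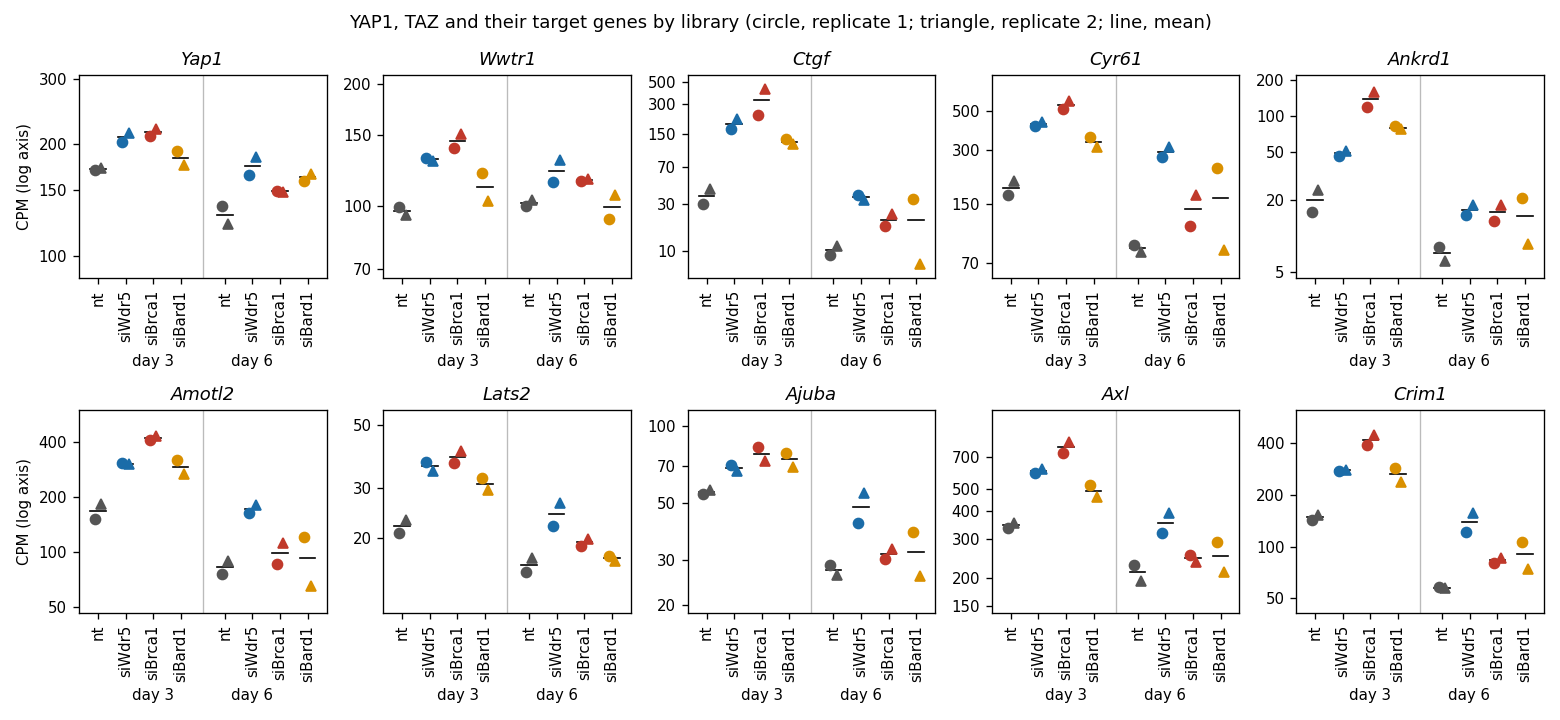
CPM (log axis) of each of the 10 genes in all 16 libraries, by siRNA and day, with circles for replicate 1, triangles for replicate 2 and a line at the mean of both. The 9 genes other than *Wwtr1* are lowest on average in the nt control at day 6, and all 10 are highest in siBrca1 at day 3.

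Across the 8 groups the same end points recurred. The mean level of each of the 10 genes was highest in siBrca1 at day 3, and for 9 of them it was lowest in the nt control at day 6. *Wwtr1* was lowest in the nt control at day 3, where it did not stand apart from the groups next to it in order. Neighbours in the order often overlapped in their libraries, in particular siWdr5 at day 6 and the nt control at day 3, which overlapped for *Ctgf*, *Amotl2*, *Lats2*, *Ajuba*, *Axl*, *Crim1*, *Ankrd1* and *Yap1*. For *Cyr61* all siWdr5 libraries at day 6 lay above the nt control at day 3.

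How the genes behaved in reprogramming without a knockdown is the question of the nt control at day 6 against day 3. The 8 targets fell, and *Wwtr1* did not pass the test. The nt control libraries of day 3 also entered the day 3 comparisons that were known when the genes were chosen. In *Ctgf*, which encodes a secreted matrix-associated growth factor ligand, the nt control libraries read 29.8 and 42.2 CPM at day 3 and 9.25 and 11.3 CPM at day 6. *Cyr61*, its relative in the CCN family, read 169 and 201 CPM at day 3 and 89.0 and 80.8 CPM at day 6. In both genes the day 6 libraries lie below the day 3 libraries, without overlap. *Ankrd1*, a nuclear and sarcomeric ankyrin repeat protein that is among the most used YAP readouts, went from 15.9 and 24.1 CPM to 8.13 and 6.20 CPM. The log2 fold changes were −1.79 for *Ctgf* (SE 0.45, adjusted p = 0.00382), −1.12 for *Cyr61* (SE 0.31, adjusted p = 0.00815) and −1.46 for *Ankrd1* (SE 0.31, adjusted p = 0.00111), by limma with Benjamini-Hochberg adjustment over the 14028 genes tested.

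The feedback inhibitors *Amotl2* and *Lats2* fell as well, as did *Ajuba*, *Axl* and *Crim1*. *Amotl2*, an angiomotin that holds YAP at junctions, read 152 and 184 CPM at day 3 and 75.6 and 89.4 CPM at day 6 (log2 fold change −1.02, SE 0.21, adjusted p = 0.000992). *Lats2*, the kinase that phosphorylates YAP and TAZ, read 20.8 and 23.2 CPM and then 15.3 and 17.0 CPM (−0.45, SE 0.13, adjusted p = 0.0103). The *Lats2* value is uncertain in another way, since 42.4% of its exon bases are shared with *Gm49361* on the same strand and reads there could have been split or dropped. *Ajuba*, a LIM protein that binds and restrains LATS kinases at junctions, changed by −1.01 (adjusted p = 0.000154). *Axl*, a receptor tyrosine kinase of mesenchymal cells, changed by −0.70 (adjusted p = 0.00106), and *Crim1*, a transmembrane protein that binds BMP ligands, by −1.36 (adjusted p = 1.03e-05).

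Of the coactivators, *Yap1* read 170.2 and 172 CPM in the nt control at day 3 and 136 and 122 CPM at day 6, a log2 fold change of −0.41 (SE 0.10, adjusted p = 0.00327). *Wwtr1* read 99.6 and 95.1 CPM and then 100.1 and 103 CPM (0.06, 95% interval −0.17 to 0.30, adjusted p = 0.664). With quantile-normalized libraries *Yap1* changed by −0.19 (adjusted p = 0.0534) and *Wwtr1* by 0.31 (adjusted p = 0.0153), so whether each coactivator changed depends on the scaling, while in both scalings *Yap1* lay below and *Wwtr1* above its day 3 level. Per kilobase of merged exon, *Yap1* stood at 18.5 CPM and *Wwtr1* at 20.4 CPM on average at day 3 and at 13.9 and 21.3 CPM at day 6. The ratio of *Yap1* to *Wwtr1* per kilobase was 0.882 and 0.935 in the day 3 libraries and 0.703 and 0.607 in the day 6 libraries.

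In all, 9 of the 10 genes were past adjusted p 0.05 and lower in the nt control at day 6, where 27.1% of all genes tested were. The median log2 fold change was −1.02 over the 10 genes and −0.07 over all genes tested. Marker levels moved between the same libraries. The summed epithelial markers (*Cdh1*, *Epcam*, *Krt8*, *Krt18*, *Krt19*, *Ocln*, *Cldn6* and *Esrp1*, 8 of 8 with values) were at 76.4 to 97.1 CPM at day 3 and 576 to 769 CPM at day 6, and the fibroblast markers summed to 4130 to 4165 CPM at day 6. Single fibroblast markers moved in both directions, with *Lum* (4.19) and *Dcn* (3.25) among 5 that rose and *Col1a1* (−1.83) among 3 that fell. Their part in the fall was not tested. Leaving out replicate 2 of the nt control at day 3 took *Cyr61* (adjusted p = 0.0655) and *Lats2* (adjusted p = 0.102) over the threshold, and leaving out replicate 1 of day 6 took *Lats2* over it (adjusted p = 0.0918).

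The same course within each knockdown uses day 3 libraries in which the genes were already known to be high, so its values are a description. In siBrca1 all 10 genes were past the threshold and lower at day 6 (28.9% of all genes tested), in siBard1 8 (17.7%) and in siWdr5 7 (10.4%). *Ctgf* differed between the days by −3.93 (95% interval −4.88 to −2.98) in siBrca1, −2.97 (−3.91 to −2.02) in siBard1 and −2.43 (−3.38 to −1.49) in siWdr5. *Cyr61* differed by −1.95 (−2.61 to −1.29), −1.24 (−1.91 to −0.58) and −0.52 (−1.18 to 0.15) in the same order. The siWdr5 value of *Cyr61* is the one whose interval reaches 0 among the 8 targets in the 4 courses.

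**Figure D2:**
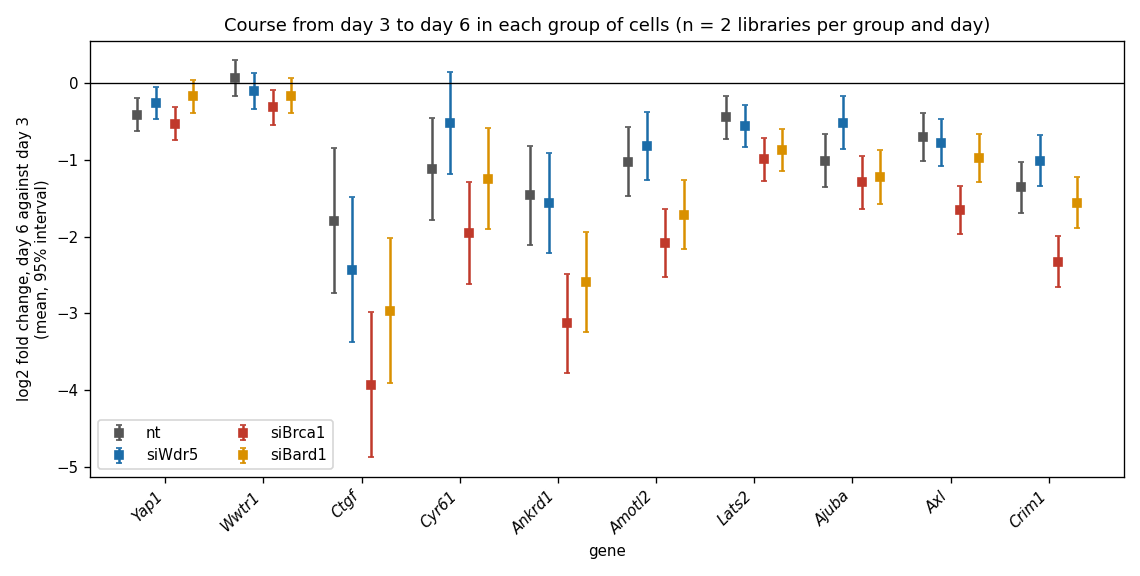
Log2 fold change of each gene from day 3 to day 6 with its 95% interval, for the nt control and each knockdown (2 libraries per group and day). The targets lie below 0 with intervals that do not reach it, apart from *Cyr61* in siWdr5, and *Wwtr1* sits near 0 in the nt control.

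At day 3 the knockdowns were compared with the nt control. The genes were proposed with day 3 results of these libraries known, so the values of this day are a description from which nothing is read about the genes. All 3 knockdowns share the 2 nt control libraries of the day. *Yap1* read 202 and 214 CPM in siWdr5, 210.5 and 219 in siBrca1 and 191 and 176 in siBard1, against 170.2 and 172 in the nt control. *Wwtr1* read 132 and 129, 139 and 150.5, and 120.4 and 103 CPM in the same order, against 99.6 and 95.1. All knockdown libraries lay above both control libraries in these genes, as they did in the other 8 (34.9% of all genes tested in siWdr5, 38.8% in siBrca1 and 30.2% in siBard1), with log2 differences of 0.10 (*Yap1* in siBard1) to 0.57 (*Wwtr1* in siBrca1).

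The secreted targets differed more. *Ctgf* read 169 and 209 CPM in siWdr5, 234 and 417 in siBrca1 and 133 and 118 in siBard1, where the nt control had 29.8 and 42.2. Its log2 difference was 2.41 (95% interval 1.94 to 2.87), 3.14 (2.67 to 3.61) and 1.82 (1.35 to 2.28), which is 5.30-fold, 8.81-fold and 3.52-fold. The siBrca1 libraries of *Ctgf* were also 0.84 log2 units apart, the widest gap between replicates of any of the 10 genes at this day. *Cyr61* read 409 and 431, 508 and 565, and 356 and 313 CPM, against 169 and 201 (1.19, 1.54 and 0.86). Per kilobase of exon the ratio of *Ctgf* to *Cyr61* was 0.125 and 0.149 in the nt control libraries, 0.292 and 0.342 in siWdr5, 0.325 and 0.521 in siBrca1 and 0.263 and 0.265 in siBard1, so *Ctgf* was further from its control level than *Cyr61*. Reads of *Ctgf* cannot be separated from those of *Gm15270* on the opposite strand, which shares 23.2% of its exon bases, since the strand setting of the counting is not given in the sources used here.

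*Ankrd1* stood in a different order. It read 46.9 and 50.6 CPM in siWdr5, 119 and 158 in siBrca1 and 82.8 and 77.6 in siBard1, against 15.9 and 24.1 in the nt control. Both siBard1 libraries of *Ankrd1* lay above both siWdr5 libraries (28.1% of all genes tested), whereas the mean of siBard1 was below that of siWdr5 in *Yap1*, *Wwtr1*, *Ctgf*, *Cyr61*, *Amotl2*, *Lats2*, *Axl* and *Crim1*. In *Ajuba* the mean was higher in siBard1 (74.0 CPM against 68.4 in siWdr5). The libraries of these knockdowns overlapped in *Ajuba*, *Amotl2* and *Crim1*. With siWdr5 above siBard1, 0 of the 10 genes were past the threshold (4.85% of all genes tested). The log2 difference of siWdr5 from siBard1 was −0.72 in *Ankrd1* (95% interval −1.09 to −0.35), the only one of the 10 past the threshold in that direction (3.78% of all genes tested). siBrca1 was above siWdr5 past the threshold in 5 genes (10.2%), led by *Ankrd1* at 1.49 (1.12 to 1.86), and above siBard1 in 7 (13.1%), led by *Ctgf* at 1.32 (0.85 to 1.79).

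*Amotl2*, *Lats2*, *Ajuba*, *Axl* and *Crim1* followed at day 3 with smaller differences. *Amotl2* read 304 and 301 CPM in siWdr5, 408 and 426 in siBrca1 and 317 and 267 in siBard1, against 152 and 184. *Lats2* read 37.1 and 34.4, 36.8 and 40.4, and 32.6 and 29.5 CPM, against 20.8 and 23.2. *Ajuba* read 70.2 and 66.6, 82.8 and 72.7, and 78.7 and 69.3 CPM, against 54.4 and 56.2. *Ajuba* was the target with the smallest differences (0.31, 0.49 and 0.42). *Axl* read 591 and 614, 729 and 813, and 519 and 459 CPM, against 333 and 354. *Crim1* read 276 and 279, 391 and 446, and 288 and 238 CPM, against 143 and 153. In both genes the log2 difference was highest in siBrca1 (1.16 and 1.497) and lowest in siBard1 (0.51 and 0.82).

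Counted over the 10 genes at day 3, 10 were past adjusted p 0.05 and higher in siWdr5 where 18.3% of all genes tested were, 10 in siBrca1 (25.4%) and 8 in siBard1 (8.67%). The genes were chosen with day 3 results known, so these counts describe the choice and are no test of it. The siBard1 count was 5 when nt control replicate 1, nt control replicate 2 or siBard1 replicate 1 was left out, where 2.22%, 3.61% and 3.35% of all genes tested passed. With a log2 difference above 1 as well, the counts were 3 (4.1%), 6 (7.12%) and 2 (1.58%). The medians of the 10 genes were 0.83, 1.24 and 0.65, and those of all genes tested −0.04, 0.002 and −0.02. The fibroblast marker sum was 12781 to 13186 CPM in siWdr5, 9761 to 10884 in siBrca1 and 8044 to 9435 in siBard1, against 6196 to 7213 in the nt control. The epithelial sum was 66.3 to 66.6, 62.6 to 85.9 and 76.4 to 89.4 CPM, against 76.4 to 97.1. Single epithelial markers differed in both directions, which the sum hides. In siWdr5 *Cdh1* averaged 12.7 CPM against 35.4 in the nt control, and *Krt19* 44.8 against 29.8. The log2 differences of the epithelial markers ran from −1.93 to 0.59 in siWdr5, −1.46 to 1.04 in siBrca1 and −0.67 to 0.56 in siBard1. Their medians were −1.05, −0.25 and −0.24. *Des* and *Actc1* summed to 139.9 to 140.0 CPM in siWdr5, 165 to 173 in siBrca1 and 77.6 to 91.5 in siBard1, against 31.1 to 41.3, and the 3 macrophage markers to 10.1 to 11.0, 11.7 to 14.1 and 7.06 to 8.33 CPM, against 5.88 to 6.28. The part of these markers in the differences of the 10 genes was not tested.

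**Figure D3:**
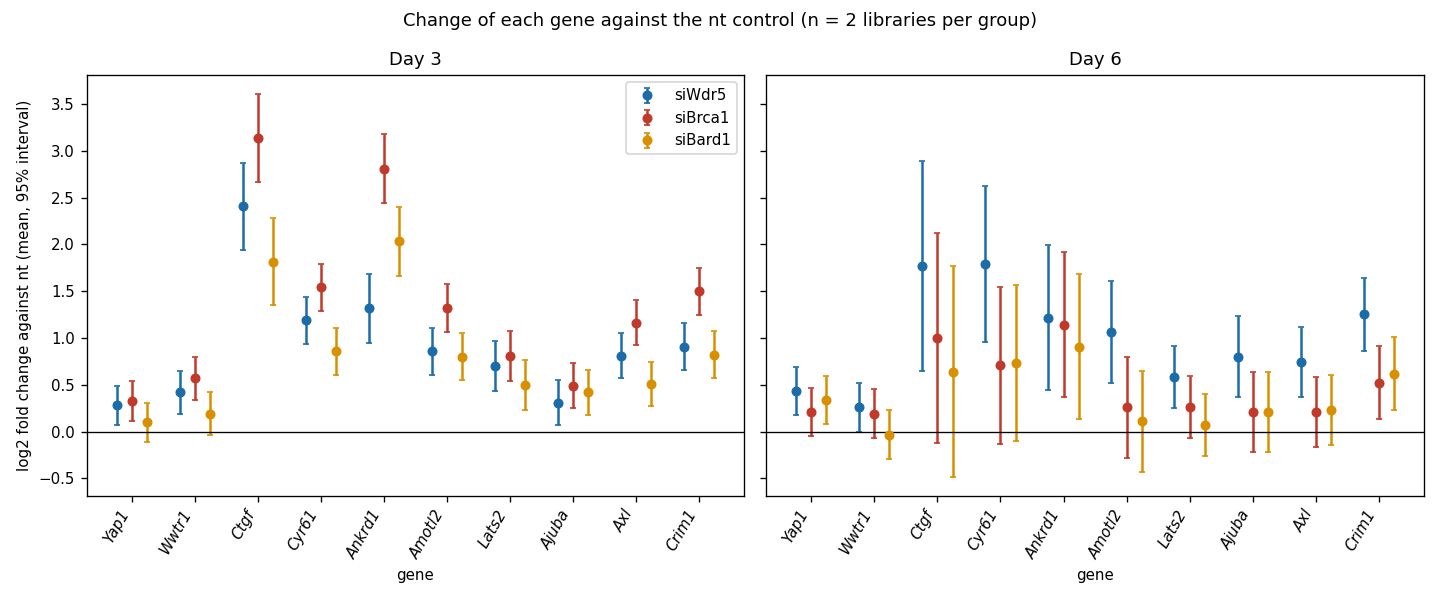
Log2 fold change against the nt control of the same day with its 95% interval, for the 10 genes in each knockdown at day 3 (left) and day 6 (right). At day 3 siBrca1 has the highest value in each gene, whereas at day 6 siWdr5 has the highest value in each gene.

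The day 6 comparison asks whether the genes still differed from the nt control later in reprogramming. In siWdr5, 9 of the 10 were higher. The 3 knockdowns again share the nt control libraries of the day. *Cyr61* read 276 and 312 CPM in siWdr5 against 89.0 and 80.8 in the nt control, a log2 fold change of 1.79 (SE 0.38, adjusted p = 0.0111). *Ctgf* read 36.7 and 33.0 CPM against 9.25 and 11.3 (1.77, SE 0.51, adjusted p = 0.0333). These are 3.46-fold and 3.40-fold rises, with both siWdr5 libraries above both control libraries. *Crim1* read 121 and 157 CPM against 58.1 and 57.5 and had the smallest p of the 10 (1.25, SE 0.18, adjusted p = 0.00362). *Ankrd1* read 15.0 and 18.2 CPM against 8.13 and 6.20 (1.22, SE 0.35, adjusted p = 0.0336).

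The feedback inhibitors *Amotl2* and *Lats2* rose as well, as did *Ajuba* and *Axl*. *Amotl2* read 164 and 180.3 CPM in siWdr5 at day 6 against 75.6 and 89.4 in the control (1.06, SE 0.24, adjusted p = 0.0148). *Lats2* read 22.1 and 26.6 CPM against 15.3 and 17.0 (0.59, SE 0.15, adjusted p = 0.0217), and *Ajuba* 41.9 and 54.5 against 28.7 and 26.2 (0.80, SE 0.19, adjusted p = 0.0179). *Axl* read 318 and 391 against 229 and 194 (0.74, SE 0.17, adjusted p = 0.0144). Of the coactivators, *Yap1* rose from 136 and 122 CPM to 164 and 184 (0.44, SE 0.12, adjusted p = 0.0255). *Wwtr1* read 114 and 129 CPM against 100.1 and 103, a difference of 0.26 (95% interval −0.004 to 0.52) that did not pass (adjusted p = 0.139). Over the alternative fits, with other scalings and filters or a library left out, *Yap1* ran from 0.22 to 0.52 and *Wwtr1* from 0.05 to 0.35. The size of both differences thus depends on the processing.

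In siWdr5 at day 6, 9 genes were thus higher past adjusted p 0.05 where 16.1% of all genes tested were, and 5 with a log2 fold change above 1 as well (3.33%). All 10 had both siWdr5 libraries above both control libraries (41.3% of all genes tested). The median of the 10 was 0.93, and that of all genes tested 0.08. The count rests on all 4 libraries: it was 0 without siWdr5 replicate 2 (0.228% of all genes tested), 1 (*Crim1*) without replicate 1 (4.56%) or without replicate 2 (1.85%) of the nt control, and 7 without siWdr5 replicate 1 (13.4%). The median over the 10 genes lay between 0.80 and 1.06 in these refits. siWdr5 replicate 2 is also the deepest library, with 26832534 reads against 11700453 and 11248043 in the nt control. The fibroblast marker sum was 7969 to 11258 CPM in siWdr5 and 4130 to 4165 in the control, and the epithelial sum 394 to 518 against 576 to 769. Of the fibroblast markers 5 of 10 were higher and *Postn* was lower (−1.11, adjusted p = 0.0145), with *Dcn* at −0.52 (adjusted p = 0.0738) and *Lum* at −0.53 (adjusted p = 0.231). *Col1a1* alone averaged 4344 CPM in siWdr5 and 1032 CPM in the control. *Des* and *Actc1* summed to 51.9 to 66.9 CPM against 14.5 to 17.2, and the 3 macrophage markers to 9.16 to 12.3 CPM against 6.31 to 7.45. Their part in the rise was not tested.

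In siBrca1 at day 6 none of the 10 genes passed by limma, of which 2 were higher at an unadjusted p under 0.05 (*Ankrd1* and *Crim1*, where 5.13% of all genes tested were), and 0 passed by limma-voom on reads recovered from the values. Of all genes tested 0% were higher past the threshold, with 720 genes at an unadjusted p under 0.05, and 0 were by limma-voom. *Ctgf* read 17.9 and 23.5 CPM against 9.25 and 11.3, a difference of 1.00 (95% interval −0.12 to 2.13, adjusted p = 0.643). *Cyr61* read 113 and 169 CPM against 89.0 and 80.8 (0.71, −0.13 to 1.54, adjusted p = 0.669). Both siBrca1 libraries lay above both control libraries in 9 of the 10 genes (21.9% of all genes tested), the exception being *Amotl2* with 86.5 and 112 CPM against 75.6 and 89.4. *Ankrd1* read 13.4 and 18.3 CPM against 8.13 and 6.20 (1.14, 0.37 to 1.91, adjusted p = 0.478). The intervals of *Ctgf*, *Cyr61* and *Ankrd1* thus hold both small values and values above 1.5. The fibroblast marker sum was 4577 to 5183 CPM in siBrca1 against 4130 to 4165 in the control, the epithelial sum 593 to 621 against 576 to 769, and *Des* and *Actc1* summed to 35.6 to 38.5 CPM against 14.5 to 17.2. Log2 differences of single fibroblast markers ran from −0.96 to 0.82, with a median of 0.004. *Col1a1* averaged 1639 CPM in siBrca1 against 1032 in the control, and *Dcn* 152 against 296. The part of these markers in the differences of the 10 genes was not tested.

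In siBard1 at day 6 the libraries disagreed. *Ctgf* read 33.8 CPM in replicate 1 and 7.53 in replicate 2, the first above both control libraries and the second below both. *Cyr61* read 239.7 and 83.0 CPM against 89.0 and 80.8 in the control, and *Ankrd1* 20.7 and 8.52 against 8.13 and 6.20. These 3 genes differed by over 1 log2 unit between the siBard1 libraries, as did 2.32% of all genes tested, and in the other 7 groups none of the 10 genes did. *Amotl2* read 121 and 65.0 CPM against 75.6 and 89.4, *Ajuba* 38.6 and 25.9 against 28.7 and 26.2, and *Crim1* 106 and 74.0 against 58.1 and 57.5. In replicate 1, 9 of the 10 genes lay above both control libraries and *Wwtr1* below both. In replicate 2, 4 lay above, 3 below and 3 between them. The share of all genes tested that single libraries place so was not taken, and these counts are a description only.

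By limma 0 of the 10 genes passed in siBard1 at day 6, where 0.0784% of all genes tested were higher past the threshold. At an unadjusted p under 0.05, 3 of the 10 were higher (9.76% of all genes tested). By limma-voom 0 of the 10 passed, where 7 of the 14028 genes tested were higher. Both libraries lay above both control libraries in 3 genes (34.2% of all genes tested). *Yap1*, at 159 and 166 CPM, was one of them, with a difference of 0.34 (95% interval 0.08 to 0.59, adjusted p = 0.266). Without replicate 2, *Ctgf*, *Cyr61* and *Ankrd1* were past the threshold and higher (0.342% of all genes tested), and without replicate 1 none was (0.0428%), with *Ctgf* at −0.44 and *Amotl2* at −0.34. Summed fibroblast markers were at 6212 to 6226 CPM in the siBard1 libraries, and the muscle genes *Des* and *Actc1* summed to 43.1 CPM in replicate 1 and 20.1 CPM in replicate 2. Epithelial markers summed to 408 CPM in replicate 1 and 532 CPM in replicate 2, against 576 to 769 in the control. The part of these in the gap was not tested.

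**Figure D4:**
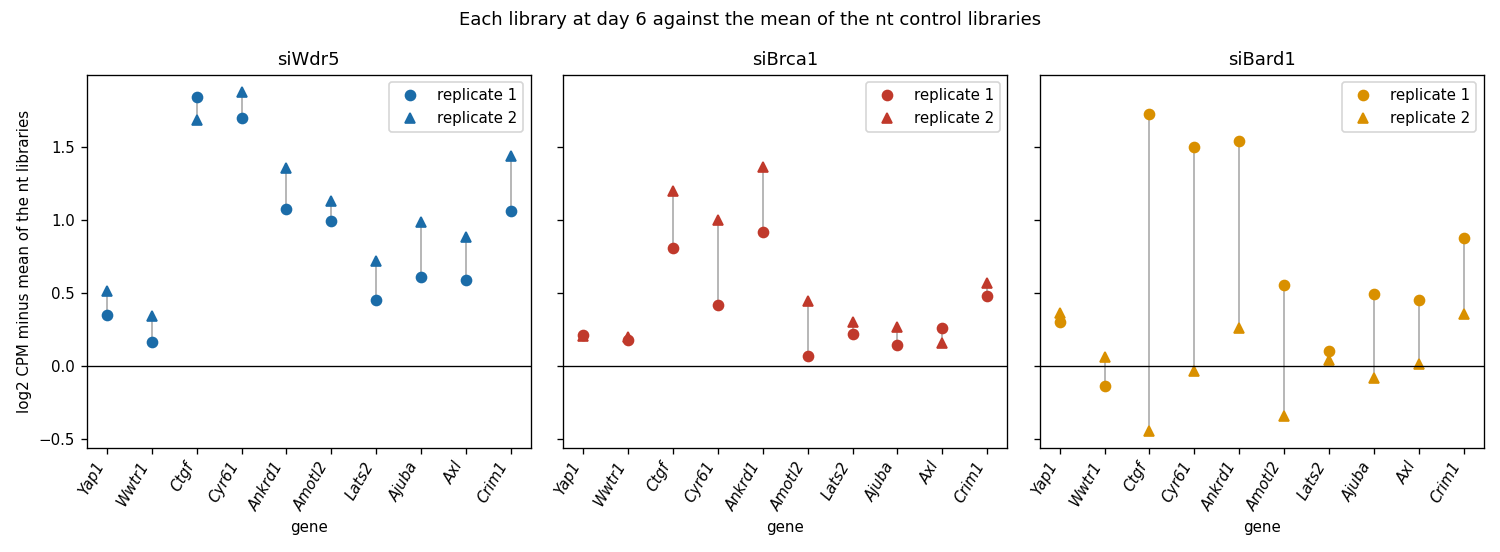
Log2 CPM of each day 6 knockdown library minus the mean of the nt control libraries of that day, with circles for replicate 1, triangles for replicate 2 and a grey line joining them. In siWdr5 all points lie above 0, and in siBard1 replicate 1 stands far above replicate 2 in *Ctgf*, *Cyr61* and *Ankrd1*.

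Set against each other at day 6, the knockdowns gave no difference past the threshold in any of the 10 genes (3 pairs, each adjusted over 14028 genes). siBrca1 was lower than siWdr5 in 0 genes by limma (1.5% of all genes tested), with 5 at an unadjusted p under 0.05 (17.4%). The value nearest the threshold was *Crim1* at −0.73 (95% interval −1.12 to −0.34, adjusted p = 0.0527). siWdr5 was higher than siBard1 in 0 genes (0.435%), with 8 at an unadjusted p under 0.05 (12%), and *Amotl2* was nearest at 0.95 (0.41 to 1.49, adjusted p = 0.0914). Between siBrca1 and siBard1 the differences ran from −0.12 (*Yap1*) to 0.36 (*Ctgf*, −0.76 to 1.48), with 0 genes at an unadjusted p under 0.05 in either direction, where 1.78% of all genes tested were higher and 3.39% lower.

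How the difference from the nt control changed between the days contains the day 3 values and is given as a description. In siBrca1 it shrank past the threshold in 6 genes (*Ctgf*, *Ankrd1*, *Amotl2*, *Lats2*, *Axl* and *Crim1*), where 10.3% of all genes tested did. *Ctgf* differed from its control by 2.13 less at day 6 than at day 3 on the log2 scale (change −2.13, 95% interval −3.47 to −0.80), and *Axl* by −0.95 (−1.39 to −0.51). The count was 2 without replicate 1 of the nt control (4.46% of all genes tested) or replicate 2 of siBrca1 (3.49%) at day 3. It was 3 without replicate 1 (5.27%) or replicate 2 (8.04%) of the nt control at day 6 or replicate 1 of siBrca1 at day 6 (10%). In siWdr5 0 genes shrank past the threshold (1.03%), with 0 at an unadjusted p under 0.05 (6.45%) and 0 by limma-voom, and the values ran from −0.64 (*Ctgf*, −1.98 to 0.70) to 0.60 (*Cyr61*, −0.34 to 1.54). The median of all genes in this siWdr5 comparison was 0.12 as deposited and −0.02 once every library had been centred on the median of its genes, and that of the 10 genes was 0.04 and −0.09. In siBard1 0 genes shrank past the threshold by limma or limma-voom (0.0285%), with 3 at an unadjusted p under 0.05 (*Ankrd1*, *Amotl2* and *Lats2*, against 5.79% of all genes tested).

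The remaining genes of the pathway give the setting, counted in lists of textbook members. The counts stand beside 16.1% of all genes tested that were higher and 5.7% lower in siWdr5 at day 6, and beside 27.1% that fell and 19% that rose in the nt control course, and nothing is called particular to a list from them. Their part in the values of the 10 genes was not tested. The kinase core (*Stk3*, *Stk4*, *Sav1*, *Mob1a*, *Mob1b*, *Lats1* and the upstream kinases *Taok1*, *Taok2*, *Taok3* and *Map4k4*) changed in part. In siWdr5 at day 6, 3 of 10 were higher and 1 lower, among them *Lats1* at 0.55 (adjusted p = 0.0098) and *Taok3* at 0.64 (adjusted p = 0.0106), with *Stk3*, which encodes the kinase MST2, at −0.53 (adjusted p = 0.0214). In the nt control from day 3 to day 6, 7 of the 10 fell and 1 rose, led by *Lats1* at −0.78. The list medians were 0.32 and −0.38.

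Of the upstream and junction regulators, 8 of 13 were higher in siWdr5 at day 6. The atypical cadherins *Fat4* (1.70, adjusted p = 0.00362) and *Fat1* (1.21, adjusted p = 0.00362), which signal to the pathway from the cell surface, rose most. The angiomotin genes *Amot* (0.71, adjusted p = 0.0172) and *Amotl1* (0.62, adjusted p = 0.0111), relatives of *Amotl2*, rose beside it. From day 3 to day 6 in the nt control, 8 of the 13 fell and 2 rose, with *Fat4* at −0.85, *Wwc2* at −0.81, *Fat1* at −0.79 and *Dchs1* at 0.65.

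The TEAD factors are the DNA-binding partners of YAP1 and TAZ, and the VGLL proteins compete with YAP1 and TAZ for them. Of the 8 listed, 6 were tested, *Vgll1* being below the filter and *Vgll2* having no value used here. In siWdr5 at day 6, 4 of 6 were higher: *Vgll3* (0.97, adjusted p = 0.0111), *Tead3* (0.62, adjusted p = 0.0118), *Vgll4* (0.62, adjusted p = 0.00982) and *Tead1* (0.47, adjusted p = 0.0356). In the nt control course *Vgll3* (−0.96), *Tead4* (−0.95) and *Tead1* (−0.50) fell, 3 of the 6.

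A further 19 target genes of YAP and TAZ were listed. In siWdr5 at day 6, 10 were higher and 1 lower, with a median of 0.48. *Thbs1*, a matricellular glycoprotein, rose by 1.73 (adjusted p = 0.00792), *Ccdc80*, a matrix protein, by 1.60 (adjusted p = 0.00362), *Tgfb2* by 1.15 (adjusted p = 0.00746) and *Myof* by 1.11 (adjusted p = 0.00362). In the nt control course 9 of the 19 fell and 4 rose. The risers included *Areg*, an EGF receptor ligand, at 1.95 (adjusted p = 0.000337) and *Igfbp3* at 1.89, while *Thbs1* fell by 1.49. Members of this list thus moved in both directions, with a median of −0.20.

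Many YAP and TAZ targets are shared with SRF, whose coactivators of the MRTF family respond to actin, and with the SMAD factors of the TGF-beta pathway. All 12 SRF and MRTF targets were higher in siWdr5 at day 6 (median 1.67) and all 12 were lower in the nt control at day 6 than at day 3 (median −1.81). They were led in siWdr5 by the smooth muscle genes *Cnn1* (2.46, adjusted p = 0.00362), *Actg2* (2.45, adjusted p = 0.00362) and *Acta2* (2.20, adjusted p = 0.00441). Of 9 TGF-beta and SMAD targets, 5 were higher in siWdr5 at day 6, with *Ltbp2*, a matrix protein of the latent TGF-beta binding family, at 1.43 (adjusted p = 0.00362). The list medians were 1.67 and 1.03, beside 0.93 over *Yap1*, *Wwtr1* and their 8 targets. In siBrca1 at day 6 no gene of these lists passed, as none of the 14028 genes did, and in siBard1 *Tgfbi* alone did (1.13, adjusted p = 0.0252).

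**Figure D5:**
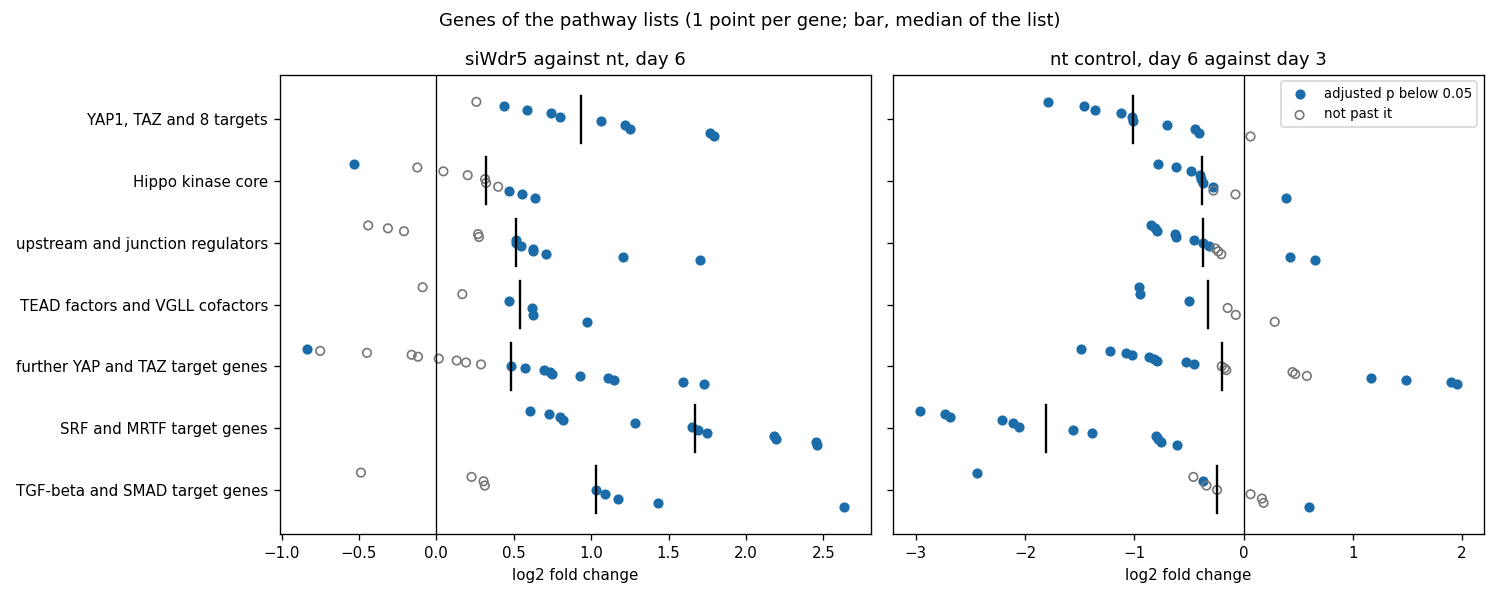
Log2 fold change of each tested gene of the pathway lists in siWdr5 against the nt control at day 6 (left) and in the nt control from day 3 to day 6 (right), 1 point per gene, filled where adjusted p is below 0.05, with a bar at the list median. The SRF and MRTF targets lie farthest from 0 in both panels, at medians of 1.67 and −1.81.

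The genes whose profile over the 16 libraries lay nearest to a member were found by the root mean square distance of log2 CPM, each gene centred on its own mean. Among the nearest to *Ctgf* were *Acta2* (0.353 log2 units) and *Siglecg* (0.365), where the spread of *Ctgf* itself over the libraries was 1.73. *Acta2* is in the SRF list above. *Ankrd1* was the nearest of the 10 at 0.559. Among the nearest to *Yap1* were *Eloa* (0.0672) and *Sec24c* (0.0674), with a spread of 0.232, and nearest to *Wwtr1* were *Ahnak2* (0.0850), *Fbxo25* (0.0874) and *Ubap1* (0.0896), with a spread of 0.200. *Yap1* and *Wwtr1* lay 0.171 from each other, nearer than to any target. The distance is not scaled for spread, and both genes had smaller spreads than any target, the next being *Lats2* at 0.457. That the targets lay farther was thus set by spread and says nothing of alike profiles. The libraries share siRNA and day, so these distances describe the 8 groups as much as the single libraries.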

How the data were processed

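RNA was made into ribosomal-RNA-depleted libraries (Kapa RNA Hyper Prep with Ribo Erase) from 16 cultures, 2 for each of 8 groups of siRNA and day. The authors aligned the reads with STAR 2.5.2b to mouse build mm10 (GRCm38) and deposited log2 CPM for 18990 genes, made with edgeR 3.20.9. The gene counter, the strand setting and any filter are not given in the sources used here. The study tested its own counts with DESeq2, and those counts were not used here. The deposited values return whole reads (100% within 0.05 reads, checked below 20000 reads) after removing a prior of 1.57 to 3.57 reads per library, which gave the totals and the limma-voom alternative. A count of 3 reads equals 0.115 to 0.260 CPM. Intervals cover the spread between libraries.

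Genes averaging under 0 in log2 CPM over the 16 libraries were set aside, and the other 14028 were fitted with limma 3.58.1 (R 4.3.3), trend on mean expression, two-sided, Benjamini-Hochberg over all genes. Comparisons within a day used its 8 libraries and those between days all 16. Calls are at adjusted p below 0.05. The fit was tested on simulated data. The 10 genes, the lists and the tests were chosen with earlier results of these data known, so day 3 comparisons, courses within knockdowns and changes of difference between days carry no p-value in the account above. Their counts past the threshold are likewise a description and no test. Named genes are the 10, up to 4 genes per list with the largest absolute log2 fold change among those past the threshold, and the 3 genes nearest in profile to *Yap1*, *Wwtr1* and *Ctgf*. *Tgfbi* in siBard1 falls under the same rule. Some genes that this rule names are not reported here. Exon lengths and overlaps are from GENCODE vM21 (18969 genes matched). Alternatives were the filter, the trend, the added count, the scaling, the tool, the call rule, the libraries in the fit, the replicate block and leaving out each library. Python 3.11.15, pandas 2.3.3 and matplotlib 3.10.9 made the tables and plots.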

Additional observations from a re-analysis of the deposited data

Results flagged for a closer look

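In siBrca1 the difference from the nt control was smaller at day 6 than at day 3 for 6 of the 10 genes, all of them targets, which the fit over all 14028 genes set past its threshold. A change in that direction passed in 10.3% of all genes tested. The change in log2 difference was −2.13 for *Ctgf*, −1.67 for *Ankrd1* and −1.06 for *Amotl2*. It was −0.97 for *Crim1*, −0.95 for *Axl* and −0.55 for *Lats2*. These changes contain the day 3 values that were known when the genes were proposed, so they are a description and no p is given. The siRNA target itself differed between the days in the same libraries: *Brca1* was at 28.4 CPM in siBrca1 against 80.2 CPM in the nt control at day 3, and at 37.96 against 37.9 CPM at day 6. The part of this in the smaller differences was not tested.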

How the results depend on the processing

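Counts of the 10 genes past adjusted p 0.05 kept within 1.5 times the reported value under the filters, added counts, scalings, limma-voom, other sets of libraries in the fit and the replicate block. With an absolute log2 fold change above 1 as well, they were 3 (siWdr5, 4.1% of all genes tested), 6 (siBrca1, 7.12%) and 2 (siBard1, 1.58%) at day 3. By the same rule they were 5 (3.33%) in siWdr5 at day 6 and 3 (4.64%) for the change of difference in siBrca1. Without the trend they were 5 (siBard1, day 3), 4 (siWdr5, day 6) and 3 (change in siBrca1). Leaving out each library in turn gave 7 to 8 (siWdr5), 9 to 10 (siBrca1) and 5 to 7 (siBard1) at day 3, 0 to 7, 0 and 0 to 3 at day 6, 7 to 9 in the nt course, and 0, 2 to 6 and 0 to 2 for the change in siWdr5, siBrca1 and siBard1. A lone library was then assumed to vary like the other groups. Calls over all genes tested moved in these refits too, so the counts are no result about the 10 genes alone. The siBard1 count of 2 came without replicate 1 of day 6.

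Numbers R1 and R2 recur in all groups, and deviations of same-numbered libraries correlated across genes at −0.093 to 0.072 at day 3 and −0.070 to 0.260 at day 6. With the replicate block the count was 9 in siWdr5 at day 3 in place of 10, and the other 9 counts did not change.

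Signs turned in 18 of 1540 refits of single genes, all of values that had not passed. In siBard1 at day 6, leaving out each library in turn gave −0.133 to 0.0653 for *Wwtr1*, −0.44 to 1.73 for *Ctgf*, −0.0306 to 1.499 for *Cyr61*, −0.34 to 0.56 for *Amotl2*, −0.0048 to 0.155 for *Lats2* and −0.0796 to 0.494 for *Ajuba*. The turn came without siBard1 replicate 1, and for *Lats2*, and again *Amotl2*, without nt replicate 1. Quantile scaling gave −0.0364 for *Amotl2*. For the change of difference in siWdr5 the ranges were −0.399 to 0.201 for *Ankrd1* (0.0367 with quantile scaling), −0.248 to 0.0214 for *Lats2* and −0.219 to 0.0785 for *Axl*. For the change in siBard1 they were −0.891 to 0.639 for *Cyr61*, −0.498 to 0.0762 for *Ajuba* and −0.466 to 0.0576 for *Crim1*, turned by siBard1 replicate 2 of day 6. The causes were not tested beyond the smaller number of libraries.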
